A study of Mus musculus with 13 samples.

Results

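Cystatins are protein inhibitors that block papain-like cysteine proteases, chiefly the cathepsins of lysosomes. The expression of 3 cystatin genes, Cst7, Cst3 and Cstb, was examined in mouse microglia, the resident macrophages of the brain. The 3 genes were selected by symbol from a table of 19737 genes, on the grounds that Cst7 had been seen to rise steeply in the disease model while Cst3 and Cstb were taken to be constitutive. That choice used the levels in 5xFAD against wild type, so differences from wild type in these 3 genes are given as a description, with no test. All 3 were among the 10817 genes tested, those whose mean over the libraries reached 1 FPKM (fragments scaled to gene length and to library size). The division into an induced gene and a constitutive pair held only in part, because Cstb was also higher in every 5xFAD library than in every wild type library.

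RNA depleted of ribosomal RNA was sequenced from microglia in 13 libraries of 4 groups. The wild type group (n = 3) and the 5xFAD control group (n = 2) received AAV PHP.eB-EGFP, an adeno-associated virus with the brain-penetrant PHP.eB capsid that carries a fluorescent protein. A further 5xFAD group (n = 4) had been given AAV PHP.eB carrying circPOLR2A, a circular RNA with double-stranded stretches, and the labels number its construct differently in each library, from circPOLR2A(9,10) to circPOLR2A(9,13). Whether these are different constructs or 1 construct with a running number entered in the labels is not known here. In the last group (n = 4) 5xFAD was combined with loss of PKR, the kinase that double-stranded RNA activates, and the labels of that group name no virus. The 5xFAD line carries mutant human transgenes of familial Alzheimer disease under the neuronal Thy1 promoter, so the microglia themselves are not the cells in which that promoter is chiefly active. Age, sex, strain background and the way the microglia were isolated are not given in the sources used here, nor is it said whether each library came from a separate mouse. If it did not, the p-values measure only the spread between libraries. Library names are given for the PKR knockout group alone, and its labels name no virus. A possible batch, a possible difference in virus and the knockout itself therefore cannot be told apart.

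Cystatin C, the product of Cst3, is secreted by many cell types, is abundant in cerebrospinal fluid and binds amyloid beta. Cystatin B, the product of Cstb, lacks a secretion signal and acts in the cytosol and nucleus, and its loss in humans causes a progressive myoclonus epilepsy. Cystatin F, the product of Cst7, is made by leukocytes and sorted to endosomes and lysosomes, where it can inhibit cathepsins C and L, and its gene is a widely used marker of disease-associated microglia, the state that microglia adopt around amyloid plaques.

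Cst7 lies on chromosome 2 from 150570415 to 150578944 on the plus strand, and Cst3 on the same chromosome from 148871722 to 148875692 on the minus strand (GRCm38, the build that the label mm10 denotes, with GENCODE M21 genes). Cstb lies on chromosome 10 from 78425669 to 78427622 on the plus strand. All 3 are protein coding, with merged exon lengths of 986 bases for Cst7, 1266 for Cst3 and 603 for Cstb. The 250 bases upstream of the Cst7 start are shown because this gene had the largest change against wild type of any gene tested on the log2(FPKM + 1) scale. They span chr2:150570165-150570414 (RefSeq, GRCm38.p6, plus strand, read 5′ to 3′), and the capitals mark a match to AGGAAGTG, a core recognised by PU.1 and other ETS factors.
Cst7: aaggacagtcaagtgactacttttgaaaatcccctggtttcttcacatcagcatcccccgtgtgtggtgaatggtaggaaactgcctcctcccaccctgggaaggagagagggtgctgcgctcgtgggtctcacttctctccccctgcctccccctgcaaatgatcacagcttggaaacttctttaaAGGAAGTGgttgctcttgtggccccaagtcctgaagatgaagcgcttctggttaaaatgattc
The match begins 63 bases before the annotated start. AGGAAGTG was found on either strand in 3.14% of 32851 RefSeq windows of this length and was not found in the Cst3 window. The Cst3 window (chr2:148875513-148875762, minus strand) overlaps the Cst3 gene at the coordinates given above. Unlike the Cst7 window, it is therefore not wholly upstream of that start, and the 2 windows are not strictly alike. No window was available for Cstb. Neither strand of the Cst7 window held the E-box CACGTG, which was found in 6.02% of windows. The AP-1 motif TGANTCA was also without a match there, against 6.75% of windows, as was the TATA box sequence TATAAA, against 12.4%. The GC box GGGCGG had no match for Cst7 but was present in the Cst3 window and in 32.7% of all windows. The Cst3 window held none of the other motifs. CpG dinucleotides numbered 4 in the Cst7 window and 8 in the Cst3 window, more than in 37.8% and 57.0% of windows.

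Depth, recovered from the steps between low values, was 57.7 to 70.0 M fragments (M standing for mega) in the PKR knockout libraries and lower, at 45.2 to 54.9 M, in all others. The 6 microglial markers used were all expressed, at summed levels of 1287 to 2194 FPKM. Wild type replicate 3 stood apart, with a lower microglial sum than the other wild type libraries (1404 FPKM, against 2194 and 2182) and the highest oligodendrocyte sum of any library (1580 FPKM, against 225 to 786 in all others). Eif2ak2, the gene for PKR, was at 3.31 to 4.61 FPKM in PKR knockout and 6.49 to 8.11 FPKM in the other 5xFAD libraries, with 4.14 to 5.23 FPKM in wild type, so in the libraries labelled knockout it was below the other 5xFAD libraries, overlapped wild type and was still detected. In bulk RNA such as this, fewer cells of a type and less RNA per cell cannot be told apart.

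Cst7 was at a low level in wild type microglia and among the most abundant transcripts in every 5xFAD group. It was at 3.05, 3.00 and 2.97 FPKM in the wild type libraries and at 490.5 and 487.1 FPKM in 5xFAD with EGFP. With circRNA it was at 599.1, 578.8, 783.0 and 481.4 FPKM. In PKR knockout it was at 646.1, 686.2, 741.3 and 645.7 FPKM. The lowest 5xFAD library was therefore far above the highest wild type library, and no value lay between them. Ranked by FPKM within each library, Cst7 stood between places 6972 and 7551 in wild type and between places 21 and 31 in 5xFAD.

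The mean of Cst7 was 163-fold higher in 5xFAD with EGFP than in wild type, 203-fold higher with circRNA and 226-fold higher in PKR knockout. These correspond to differences of 6.93, 7.23 and 7.41 in log2(FPKM + 1), the highest of the 10817 genes tested in each of these comparisons, which share the wild type libraries. The wild type value rested on 141 to 148 fragments a library, a counting error of 8.22% to 8.42%, and the coefficient of variation between the wild type libraries was smaller still, at 1.26%. In the 5xFAD libraries 24079 to 50146 fragments were behind each value, a counting error of 0.447% to 0.644%. Wild type replicate 3, with its lower microglial sum, did not differ in Cst7 from the other wild type libraries by more than counting error.

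**Figure D1:**
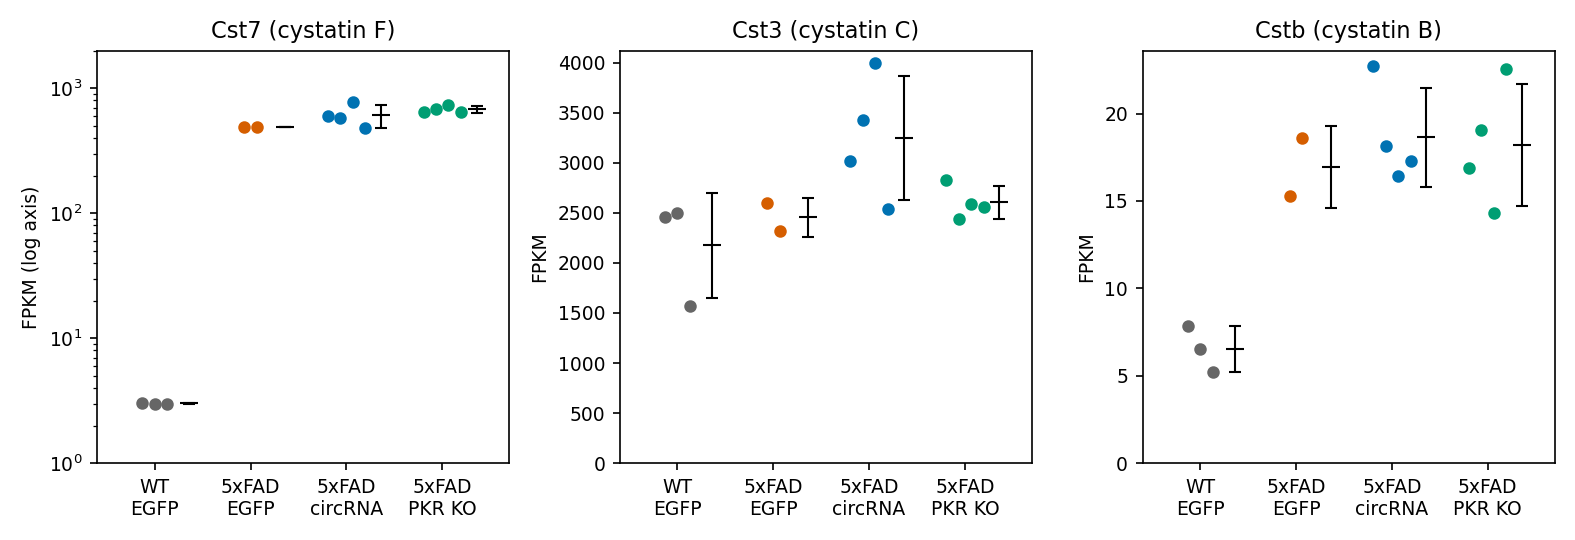
FPKM of Cst7 (log axis), Cst3 and Cstb in each library by group, with each point a library and the bar beside it the mean and SD (n = 3, 2, 4 and 4 from left to right). Cst7 separates wild type (2.97 to 3.05 FPKM) from all 5xFAD libraries (481.4 to 783.0 FPKM), Cstb separates them by a smaller step (5.23 to 7.83 against 14.3 to 22.7 FPKM), and Cst3 in wild type overlaps the EGFP and PKR knockout groups.

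Cst3 was at a very high level in all libraries. It was at 2457, 2501 and 1571 FPKM in wild type and at 2594 and 2314 FPKM in 5xFAD with EGFP. With circRNA it was at 3013, 3427, 3997 and 2540 FPKM. In PKR knockout it was at 2828, 2440, 2593 and 2557 FPKM. Cst3 ranked between places 1 and 5 in every library and made up 1.24% to 2.34% of the FPKM sum. Only the circRNA group lay entirely above wild type, with its lowest library (2540 FPKM) close to the highest of wild type (2501 FPKM).

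The mean of Cst3 was 2176 ± 525 FPKM (SD, n = 3) in wild type and 2454 ± 198 FPKM (SD, n = 2) in 5xFAD with EGFP, a 1.13-fold difference smaller than the SD in wild type. It was 1.49-fold higher than wild type with circRNA and 1.20-fold higher in PKR knockout. These log2(FPKM + 1) differences of 0.59 and 0.29 were 0.37 and 0.069 without wild type replicate 3, and 0.30 and 0.055 with libraries rescaled to the same FPKM sum. The sign of the Cst3 difference between 5xFAD with EGFP and wild type rested on 1 library. It was 0.20 on the log2(FPKM + 1) scale and -0.017 without wild type replicate 3.

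Cstb was the least abundant of the 3 in 5xFAD and stood between the others in its difference from wild type. It was at 7.83, 6.56 and 5.23 FPKM in wild type and at 15.3 and 18.6 FPKM in 5xFAD with EGFP. With circRNA it was at 22.7, 18.2, 16.4 and 17.3 FPKM. In PKR knockout it was at 16.9, 19.1, 14.3 and 22.6 FPKM. No 5xFAD library overlapped a wild type library, while the 3 5xFAD groups overlapped one another, with EGFP covering the narrowest range.

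The mean of Cstb was 2.59-fold higher than wild type in 5xFAD with EGFP, 2.85-fold higher with circRNA and 2.79-fold higher in PKR knockout. Its log2(FPKM + 1) differences of 1.26, 1.39 and 1.35 exceeded those of 98.6%, 98.5% and 97.9% of all tested genes. Between 159 and 834 fragments were behind each Cstb value, a counting error of 3.46% to 7.93%. Against wild type, 2 of the 3 cystatins (Cst7 and Cstb) were higher with no overlap in 5xFAD with EGFP, 3 of 3 with circRNA and 2 of 3 in PKR knockout. Over all tested genes, 16.5%, 20.2% and 19.8% were higher with no overlap in these comparisons. The choice of genes used this contrast, and nothing is read from the counts.

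The balance among the cystatins shifted between groups in a way that does not depend on the scaling of the libraries. Cst7 was 0.120% to 0.189% of the Cst3 level in wild type, by FPKM, which is per length. It was 18.9% and 21.0% of Cst3 in 5xFAD with EGFP and 19.9%, 16.9%, 19.6% and 19.0% with circRNA. In PKR knockout it was 22.8%, 28.1%, 28.6% and 25.3%. The PKR knockout libraries lay above all other libraries in this ratio, and the EGFP and circRNA groups overlapped. The Cst7 level relative to Cstb was 0.389 to 0.569 in wild type and 26.2 to 51.8 over the 5xFAD libraries, with overlap between the 5xFAD groups. These ratios were formed after the levels had been seen and carry no test.

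Levels were also set beside Csf1r, the receptor on which microglia depend for survival. Cst3 per Csf1r was 3.42, 3.51 and 3.50 in wild type, so that wild type replicate 3, low in Cst3 FPKM, was level with the others. It was 4.62 and 4.63 in 5xFAD with EGFP and 5.56, 5.20, 5.35 and 5.03 with circRNA. In PKR knockout it was 4.60, 4.04, 4.30 and 4.32. The 4 groups did not overlap in this ratio, in the order wild type, PKR knockout, EGFP and circRNA, although EGFP and the highest PKR knockout library nearly met. The order depends on the denominator: Cst3 per Cstb was 301 to 381 in wild type and lower, at 113 to 244, over the 5xFAD libraries. Csf1r itself was at 448 to 719 FPKM in wild type and 500 to 747 FPKM over the 5xFAD libraries. Cst7 per Csf1r was 0.873 to 0.974 in 5xFAD with EGFP and 0.878 to 1.11 with circRNA. In PKR knockout it was 1.05 to 1.23, above both EGFP libraries and overlapping circRNA.

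**Figure D2:**
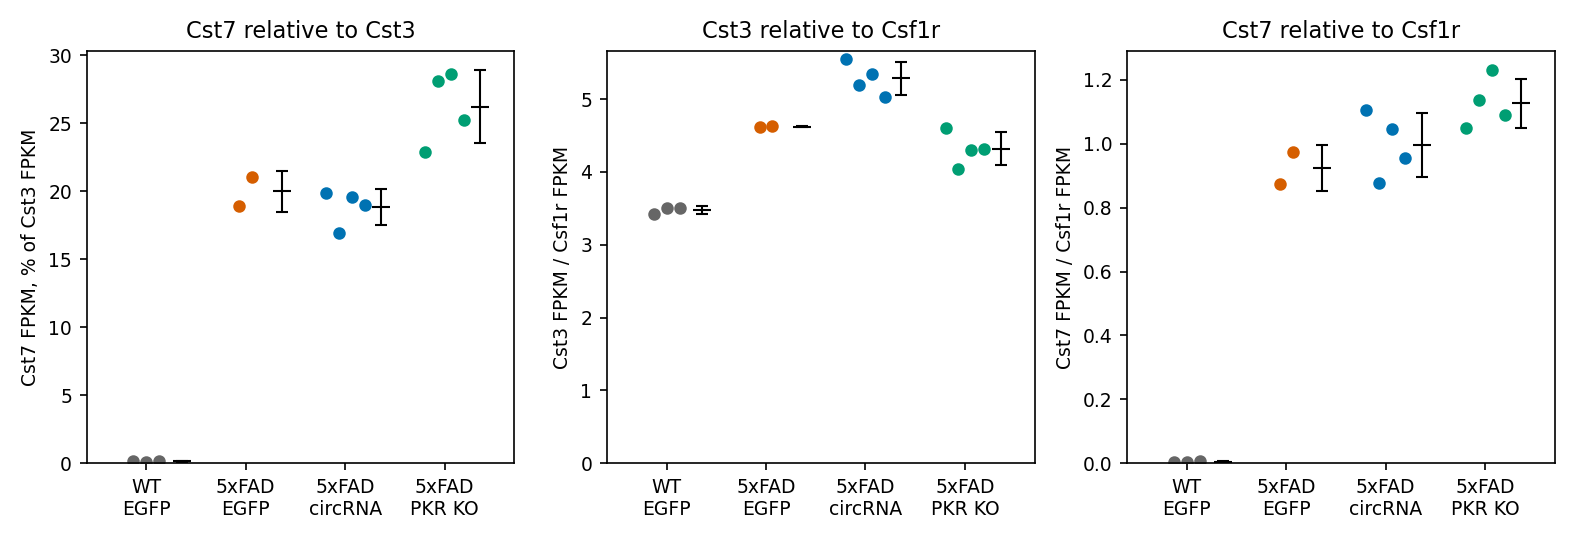
Ratios of FPKM values within each library, by group: Cst7 as a percent of Cst3 (left), Cst3 per Csf1r (middle) and Cst7 per Csf1r (right), with each point a library and the bar beside it the mean and SD. The PKR knockout libraries are above all others in Cst7 relative to Cst3 (22.8% to 28.6%) but overlap circRNA in Cst7 per Csf1r, and the circRNA libraries are above all others in Cst3 per Csf1r (5.03 to 5.56).

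The 5xFAD groups were compared with each other to ask whether the cystatins differed with the circular RNA or in the PKR knockout group. The PKR knockout group may also differ from the others in virus and batch. None of the 9 differences passed limma's adjusted threshold of 0.05. The interval beside each difference is a 95% interval from the same fit.

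With circRNA, Cst7 was 611 ± 126 FPKM (SD, n = 4) against 489 ± 2.41 FPKM (SD, n = 2) with EGFP, and 1 of the 4 libraries was below both EGFP libraries. The difference was 0.30 in log2(FPKM + 1), with an interval from -0.05 to 0.65 (limma adjusted p = 0.739, exact two-sided permutation p = 0.333). It was 0.17 without circRNA replicate 3 and 0.41 without circRNA replicate 4 (unadjusted p = 0.0152, limma adjusted p = 0.567). Cst3 was 3244 ± 619 against 2454 ± 198 FPKM, a difference of 0.38 with an interval from -0.16 to 0.93 (limma adjusted p = 0.739, exact permutation p = 0.200). Cstb was 18.6 ± 2.81 against 16.9 ± 2.35 FPKM, a difference of 0.13 with an interval from -0.27 to 0.52 (limma adjusted p = 0.815, exact permutation p = 0.600). In limma 0 of 3 cystatins passed, beside 0% of all tested genes, and 0 of 3 had an unadjusted p under 0.05, beside 4.83% of all. The groups overlapped in all 3, beside 19.3% of tested genes without overlap. The intervals leave room for changes of over 1.5-fold in Cst7 and Cst3. The summed microglial markers ranged from 1287 to 1870 FPKM with circRNA and were 1453 and 1345 FPKM with EGFP, and circRNA replicate 3 was the highest of its group in these markers, in Cst7 and in Cst3. The part of this in the result was not tested beyond rescaling to Csf1r, which gave 0.11 for Cst7 and 0.19 for Cst3.

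In PKR knockout, Cst7 was 680 ± 45.2 FPKM (SD, n = 4) against 489 ± 2.41 FPKM (SD, n = 2) with EGFP, a 1.39-fold higher mean with all 4 libraries above both. The difference was 0.47 in log2(FPKM + 1), with an interval from 0.12 to 0.82. The unadjusted limma p was 0.0122 and the adjusted p 0.250, above the threshold, and the exact permutation p of 0.0667 was the smallest that 4 libraries against 2 can give. Cst7 passed in 1 of 14 alternatives, with library weights (0.48, limma adjusted p = 0.0293). At that setting 822 of 10817 genes passed, against 9 in the main fit. With the 2 groups alone the limma adjusted p of Cst7 was 0.0502, and 577 genes passed. With libraries rescaled to Csf1r the difference was 0.29 (unadjusted p = 0.0665, limma adjusted p = 0.609). Among all tested genes 0.0832% passed, 13.0% had an unadjusted p under 0.05, 34.8% did not overlap and 17.7% were higher with no overlap, so a separation like that of Cst7 was common in this comparison. Markers of other cells moved with this comparison: the oligodendrocyte sum was 225 to 375 FPKM in PKR knockout against 636 and 680 FPKM with EGFP, and the neuron sum 7.47 to 13.0 against 21.1 and 18.2 FPKM. Their part in the result was not tested, nor was that of depth. Cst3 differed by 0.09 with an interval from -0.45 to 0.63 (limma adjusted p = 0.896), and by 0.0035 to 0.17 without 1 of the EGFP libraries. Cstb differed by 0.09 with an interval from -0.31 to 0.48 (limma adjusted p = 0.855). Both overlapped between the groups. In limma 0 of 3 cystatins passed, and 1 of 3 had an unadjusted p under 0.05.

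The circRNA and PKR knockout groups overlapped in all 3 cystatins, beside 19.5% of tested genes without overlap. For Cst7 the difference, circRNA minus PKR knockout, was -0.17 in log2(FPKM + 1) with an interval from -0.46 to 0.11 (limma adjusted p = 0.429, exact permutation p = 0.314). It was -0.30 without circRNA replicate 3 (unadjusted p = 0.0136, limma adjusted p = 0.128) and -0.068 without circRNA replicate 4. For Cst3 it was 0.30 with an interval from -0.14 to 0.74 (limma adjusted p = 0.376, exact permutation p = 0.114), and 0.19 without circRNA replicate 3. For Cstb it was 0.039 with an interval from -0.28 to 0.36 (limma adjusted p = 0.899, exact permutation p = 0.857). In limma 0 of 3 passed, beside 6.19% of all tested genes, and 0 of 3 had an unadjusted p under 0.05, beside 25.5%. With libraries rescaled to Csf1r, the Cst3 difference was 0.29 with an unadjusted p of 0.000392 and a limma adjusted p of 0.0616.

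**Figure D3:**
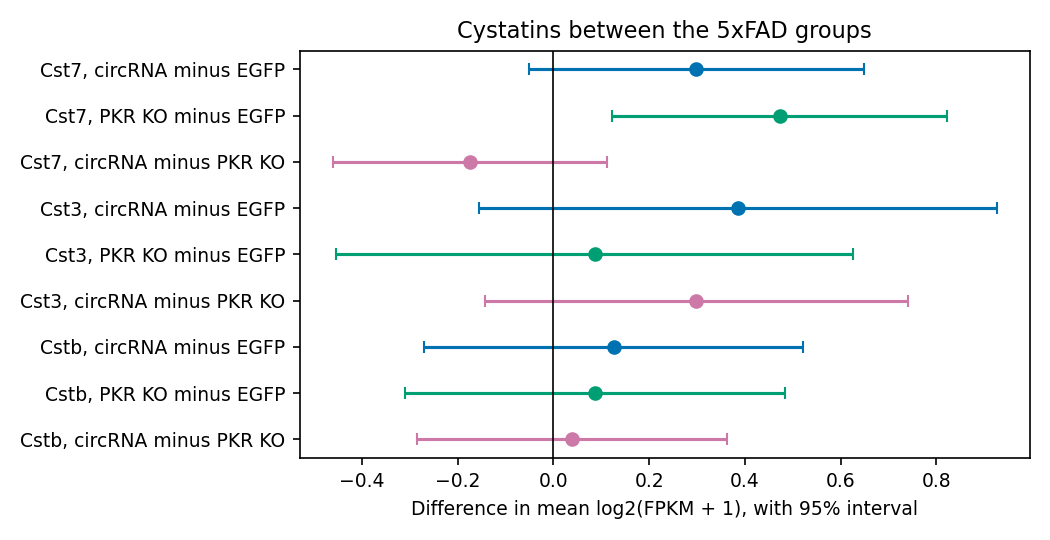
Differences in mean log2(FPKM + 1) of each cystatin between the 5xFAD groups, as points with 95% intervals from limma, and a vertical line at 0. The interval lies off 0 for Cst7 in PKR knockout against EGFP alone (0.12 to 0.82), and this difference did not pass after adjustment over 10817 genes (adjusted p = 0.250).

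The other inhibitors of the family that were measured were close to absent. Of 30 further cystatin, stefin, kininogen and fetuin genes listed, 12 were in the table and 0 reached the mean of 1 FPKM needed for testing. Their highest value in any library was 0.348 FPKM, for the stefin A gene Stfa2l1, and 2 of them (Cstdc5 and Stfa1) were at 0 in all libraries. Cst7, Cst3 and Cstb therefore made up nearly all of the measured cystatin RNA, which summed to 1580 to 2510 FPKM in wild type, 2820 and 3100 FPKM with EGFP, 3038 to 4797 FPKM with circRNA and 3146 to 3491 FPKM in PKR knockout.

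The proteases that cystatins inhibit were listed as 11 genes, the cysteine cathepsins and legumain, of which 9 were tested. Ctsk and Ctsw, whose proteins act in bone-resorbing and cytotoxic cells, were too low. In 5xFAD with EGFP against wild type 3 of 9 rose and 0 fell, beside 7.65% and 6.35% of all tested genes. These were Ctsb (from 137 ± 32.0 to 397 ± 33.4 FPKM), Ctsl (from 26.7 ± 7.24 to 85.0 ± 2.86 FPKM) and Ctsz (from 206 ± 56.6 to 554 ± 31.7 FPKM), with n = 3 and n = 2. Their log2(FPKM + 1) changes were 1.56, 1.67 and 1.46 (limma adjusted p = 0.000572, 0.000269 and 0.00134). The median change over the 9 genes was 0.46, against -0.03 over all tested genes.

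With circRNA 5 of 9 rose against wild type and 0 fell, beside 17.8% and 8.05% of all genes. In PKR knockout 5 of 9 rose and 0 fell, beside 17.5% and 19.4%. The 2 added to Ctsb, Ctsl and Ctsz were Ctss, an endopeptidase of antigen processing, and Ctsh, an aminopeptidase. Both were above wild type with no overlap in 5xFAD with EGFP too, by 0.58 (limma adjusted p = 0.188) and 0.46 (limma adjusted p = 0.0912), so that 5 of 9 were higher with no overlap there, beside 16.5% of all genes. Ctsc, the dipeptidyl peptidase that cystatin F inhibits, did not pass in any of these comparisons, at 24.1 ± 6.32 FPKM (SD, n = 3) in wild type and 27.1 ± 0.68 FPKM (SD, n = 2) in 5xFAD with EGFP. Lgmn, which encodes legumain, an asparaginyl endopeptidase inhibited by cystatin C, did not pass either, at 564 ± 140 and 476 ± 33.8 FPKM. The Cst7 level per Ctsc was 0.104 to 0.175 in wild type and 15.7 to 26.1 in 5xFAD. Between the 5xFAD groups 0 of 9 proteases passed in each of the 3 comparisons, beside 0% of all tested genes in circRNA against EGFP, 0.0832% in PKR knockout against EGFP and 6.19% in circRNA against PKR knockout. In PKR knockout against EGFP 6 of 9 were higher with no overlap (Ctsb, Ctsh, Ctsl, Ctss, Ctsz and Lgmn), beside 17.7% of all tested genes, with Ctsz highest at 0.53 (limma adjusted p = 0.335). Ctso was lower with no overlap, at 6.44 ± 0.54 against 7.43 ± 0.41 FPKM (-0.18, limma adjusted p = 0.458), beside 17.0% of all tested genes. In circRNA against PKR knockout Ctso differed by 0.30 with no overlap (limma adjusted p = 0.0517), beside 19.5% of tested genes without overlap. In PKR knockout against wild type it differed by -0.24 (limma adjusted p = 0.0537).

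**Figure D4:**
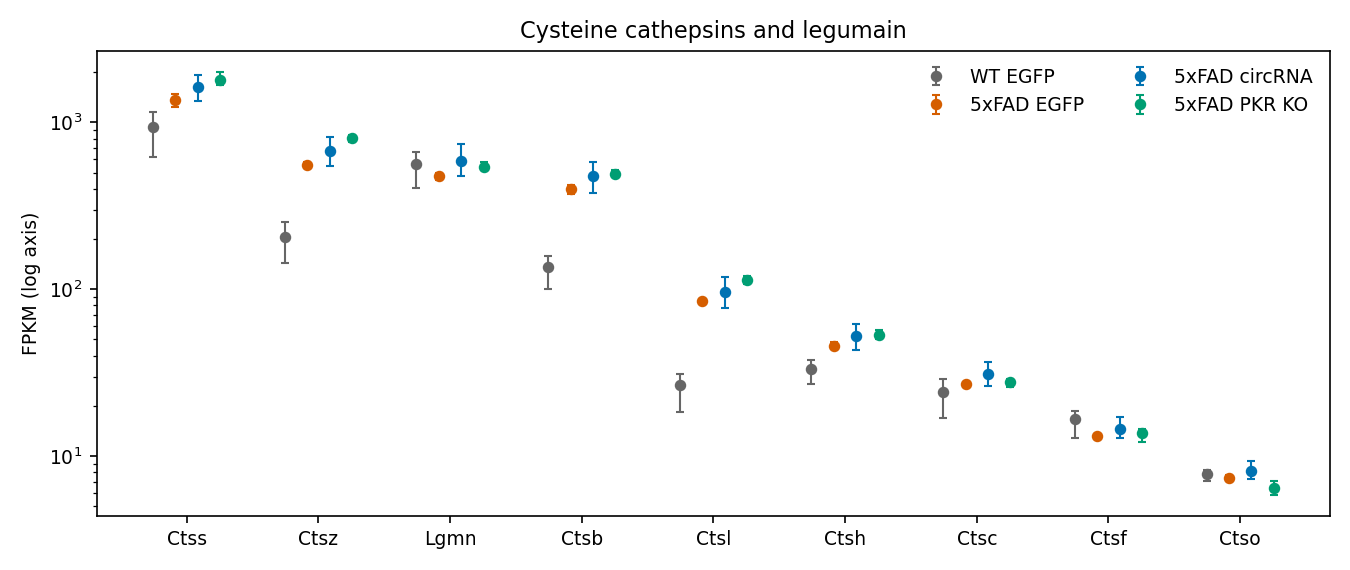
Group mean FPKM (log axis) of the 9 tested cysteine cathepsins and legumain, ordered by mean level, with bars from the lowest to the highest library of the group. Ctsb, Ctsl, Ctsz, Ctss and Ctsh are above wild type with no overlap in all 3 5xFAD groups, whereas Ctsc and Lgmn overlap between wild type and 5xFAD.

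Of 26 disease-associated microglia genes besides Cst7, a list chosen because its genes are known to rise around amyloid, 25 rose in 5xFAD with EGFP against wild type, beside 7.65% of all tested genes. The exception was Fth1, a ferritin subunit gene (0.90, limma adjusted p = 0.117). With circRNA and in PKR knockout 26 of 26 rose, beside 17.8% and 17.5%. The 5 with the largest changes, Gpnmb, Spp1, Itgax, Lpl and Csf1, changed by 4.75, 4.71, 4.63, 3.99 and 3.44 in log2(FPKM + 1), against 6.93 for Cst7. By the fold of means, with no pseudocount, the order of Gpnmb and Cst7 was the reverse. Gpnmb, at 0.118 FPKM in wild type, was 246-fold higher and Cst7 163-fold higher, in places 1 and 4 among the tested genes. In PKR knockout against EGFP, where Cst7 did not overlap, 0 of 26 passed, beside 0.0832% of all genes, and 16 of 26 were higher with no overlap, beside 17.7%. Gpnmb differed by 1.18 (limma adjusted p = 0.0644) and Spp1, which encodes osteopontin, by 1.39 (limma adjusted p = 0.181). Between circRNA and PKR knockout, where Cst7 did not pass, 2 of 26 passed, both lower with circRNA, beside 1.91% of all genes. These were Gpnmb, at 34.2 ± 8.90 against 68.3 ± 15.0 FPKM (limma adjusted p = 0.0101), and Csf1, at 66.7 ± 5.17 against 93.6 ± 14.0 FPKM (limma adjusted p = 0.0350), with n = 4 in both groups. Gpnmb passed whichever of the 8 libraries was left out. Csf1 passed in 1 of these 8 fits, without PKR knockout replicate 3, and its adjusted p ranged from 0.0177 to 0.107, with 0.0685 under the replicate block and 0.373 with Csf1r rescaling.

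Within the 10 libraries of the 5xFAD groups, the genes whose levels followed Cst7 most closely among 10816 others were Man2b2, Lrpap1, Zbtb7a, Itgax and Brap, with Pearson's r of 0.97, 0.97, 0.95, 0.94 and 0.93. Man2b2 encodes a lysosomal mannosidase, Lrpap1 a chaperone of lipoprotein receptors, Zbtb7a a transcriptional repressor and Itgax the integrin CD11c. Spearman's rho was 0.96, 0.93, 0.95, 0.94 and 0.90, and r was 0.88 to 0.99 without the 2 libraries farthest from the Cst7 median. For Cst3 the closest were Mrps18a, Ostm1, 9530068E07Rik, Strap and Fbxl14, with r from 0.96 to 0.98. For Cstb they included Hnrnpu, Eif5, Gm50139 and Cul4a, with r from 0.85 to 0.91, and without the 2 farthest libraries r fell to between 0.64 and 0.81. Libraries share their depth, tissue content and scaling across genes, so these values are a description.

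The cystatins did not follow one another closely in these libraries. Pearson's r was 0.46 between Cst7 and Cst3 (Spearman's rho 0.37), -0.08 between Cst7 and Cstb (rho -0.22) and -0.07 between Cst3 and Cstb (rho -0.24). After removal of the group means r was 0.79 between Cst7 and Cst3. Without the 2 libraries farthest from the Cst3 median, the r of 0.46 was 0.26.

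The genes around Cst7 were then examined. Of 7 tested genes within 250 kb, 0 passed in 5xFAD with EGFP against wild type, with log2(FPKM + 1) changes from -0.24 to 0.05. Apmap, the nearest, lies on the other strand with its 3′ end 4.14 kb beyond Cst7, and was at 5.92 FPKM in wild type and 6.18 FPKM in 5xFAD with EGFP. Between circRNA and PKR knockout Apmap was higher with circRNA by 0.30 (limma adjusted p = 0.0385). Near Cst3, 0 of 3 tested genes passed in 5xFAD with EGFP against wild type, and near Cstb 1 of 7 did, Syde1, which fell by 0.74 (limma adjusted p = 0.0338), beside 14.0% of all tested genes. Rrp1, 12.6 kb from Cstb, differed by 0.31 in that comparison (limma adjusted p = 0.0736). With circRNA against wild type 2 of the 7 near Cstb rose, beside 17.8% of all genes, and 1 fell, beside 8.05%. These were Rrp1 (0.48, limma adjusted p = 0.00154), Pwp2 (0.25, limma adjusted p = 0.0454) and Syde1 (-0.58, limma adjusted p = 0.0287). In PKR knockout 1 rose, beside 17.5%, and 1 fell, beside 19.4%, namely Rrp1 (0.45, limma adjusted p = 0.00181) and Syde1 (-0.78, limma adjusted p = 0.00498). Near Cst7 and Cst3 none of the 7 and 3 tested genes passed limma in either comparison.

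Other cells that express cystatins were looked for by their markers. The 9 markers of NK and T cells, which express Cst7, summed to 0.124 to 0.279 FPKM in wild type and 0.541 to 1.02 FPKM over the 5xFAD libraries, and none reached a mean of 1 FPKM. The highest value of any of the 9 in any library was 0.351 FPKM, for Nkg7. From wild type to 5xFAD with EGFP the means of 5 of the 9 were higher, Klrb1c most (0.013 and 0.25 FPKM), and those of 4 (Prf1, Gzmb, Gzma and Ncr1) were lower, at means of no more than 0.0434 FPKM in both groups. Dendritic cell markers summed to 5.88 to 9.52 FPKM in wild type and 1.79 to 3.68 FPKM in 5xFAD. Markers of border macrophages summed to 41.9 to 66.3 FPKM in wild type and 15.5 to 28.6 FPKM in 5xFAD, and those of endothelial and mural cells to 75.4 to 172 and 32.7 to 88.5 FPKM. The part of these cells in the cystatin levels was not tested. Neutrophil markers summed to 1.29 to 24.9 FPKM and overlapped between all groups. Astrocytes and the choroid plexus express Cst3. Choroid plexus markers, led by Ttr, summed to 1034 to 2701 FPKM in wild type, 573 and 785 FPKM with EGFP, 358 to 2256 FPKM with circRNA and 207 to 830 FPKM in PKR knockout. Astrocyte markers summed to 96.8 to 330 FPKM in wild type, highest in replicate 3, and 136 to 256 FPKM in 5xFAD. Within this sum the mean of Gfap was 19.3 FPKM in wild type. It was 62.5 FPKM with EGFP, 68.9 FPKM with circRNA and 91.1 FPKM in PKR knockout. The means of all other astrocyte markers used were lower in every 5xFAD group than in wild type. The part of astrocytes and choroid plexus in the Cst3 levels was not tested.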

How the data were processed

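Per the labels' protocols, ribosomal RNA was depleted and stranded libraries were sequenced. The authors deposited 1 table of FPKM values, 1 column a library. Per the submitters' processing notes, Bowtie2 2.3.5, HISAT2 2.1.0, featureCounts 1.5.1 and mm10 were used. The strand setting and annotation are not given in the sources used here. Groups followed the titles.

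Depth was recovered as the number that made low FPKM values, multiplied by GENCODE M21 exon length, whole fragments (90.9% to 93.1% within 0.05 of a fragment, against 10% by chance). Counting error covers sampling of fragments only.

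Tests used limma 3.58.1 in R 4.3.3 (log2 of deposited FPKM plus a pseudocount of 1, genes averaging 1 FPKM or more), 1 model over 13 libraries with 9 residual degrees of freedom, eBayes with an intensity trend, and Benjamini-Hochberg adjustment over all tested genes within each of 6 comparisons. Changes of genes near 1 FPKM are understated on this scale. Single genes were also tested by exact two-sided permutation. The pipeline was tested on simulated data. The genes and lists were chosen with earlier results of these data known. Genes are named as members, as tested proteases, as the 5 panel genes with the largest changes or passing between 5xFAD groups, as the 5 most similar patterns, or as neighbours within 250 kb. Stfa2l1, Cstdc5, Stfa1, Fth1, Nkg7, Klrb1c, Prf1, Gzmb, Gzma, Ncr1, Ttr and Gfap, with Csf1r as denominator, were named after their values were seen. Alternatives were another pseudocount, no filter, other scalings, the 2 groups alone, library weights, a replicate block and leaving out each library. Rescaling to Csf1r was added after seeing the data. Some genes, among them 1 microglial marker and 1 of the most similar patterns, are not reported here.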

Additional observations from a re-analysis of the deposited data

Results flagged for a closer look

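Among the cystatins and the 9 tested proteases, 24 groups of 4 libraries were screened for a library far from the others, and 1 was found, where chance gives about 1 in 20. Ctsf was at 12.1 FPKM in PKR knockout replicate 4, with the group reaching 14.5 FPKM. No cystatin had such a library.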

How the results depend on the processing

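Over the alternatives, Cst7 and Cstb kept their direction against wild type in all 3 groups. No cystatin passed between 5xFAD groups apart from Cst7 in PKR knockout against EGFP with library weights (0.48), where 822 of 10817 genes passed. The difference of Cst7 from wild type in 5xFAD with EGFP was 7.30 with pseudocount 0.1, 6.80 with equal FPKM sums, 6.96 with median-ratio scaling, 6.99 with the replicate block and 7.13 with Csf1r rescaling. With pseudocount 0.1 and equal sums it was 7.60 and 6.99 with circRNA and 7.77 and 7.22 in PKR knockout. Cstb with circRNA was 1.12 above wild type with equal sums. Leaving out 1 library each gave -0.017 (without wild type replicate 3) to 0.32 for Cst3 in 5xFAD with EGFP against wild type.

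Small differences between 5xFAD groups changed sign. For Cstb, circRNA minus EGFP was -0.056 with Csf1r rescaling, PKR knockout minus EGFP -0.090 with Csf1r, and circRNA minus PKR knockout -0.015 with equal sums and -0.045 with median ratios. For Cst3, PKR knockout minus EGFP was -0.10 with Csf1r rescaling. The cause of these changes was not tested. Leaving out 1 library each gave Cstb differences of -0.0082 to 0.26, -0.047 to 0.22 and -0.064 to 0.14 in these 3 comparisons.

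Proteases called against wild type numbered 5 with EGFP under Csf1r rescaling and 2 with the groups alone, beside 1211 and 509 of 10817 tested genes. In PKR knockout against EGFP they numbered 2 with the groups alone and 2 with weights, beside 577 and 822 of all 10817 tested genes. In circRNA against PKR knockout they numbered 3 with weights and 0 to 1 without single libraries, beside 3161 and 147 to 506 of all tested genes. Panel genes called in PKR knockout against EGFP numbered 1 with median ratios, 4 with the groups alone, 1 with the replicate block and 4 with weights. Of all 10817 tested genes, 37, 577, 22 and 822 were called at these settings. In circRNA against PKR knockout the panel genes called numbered 1 without the filter, 5 with median ratios, 7 with weights, 1 with Csf1r and 1 to 2 without single libraries. All genes called there numbered 449 of 18291 without the filter. With median ratios, weights and Csf1r they numbered 942, 3161 and 63 of 10817. Over these settings the count of all genes called ranged from 509 to 3709 in 5xFAD with EGFP against wild type, 1669 to 5676 with circRNA, 2067 to 6595 in PKR knockout, 0 to 822 in PKR knockout against EGFP and 63 to 3161 in circRNA against PKR knockout, beside 1514, 2796, 3997, 9 and 670. Without single libraries it was 566 to 1998, 2171 to 2864, 3104 to 3846, 0 to 2 and 147 to 506. Equal sums moved the median of all genes against wild type to -0.17, -0.20 and -0.24.

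Libraries share only a replicate number: in circRNA against PKR knockout the same-numbered pairs correlated at 0.04 to 0.55. In PKR knockout against EGFP they correlated at 0.27 and 0.38, the only comparison with all such pairs above 0.1. Over the comparisons with wild type they ranged from -0.42 to 0.69. The replicate block moved the counts of all genes called to 1306, 2678, 3870, 0, 22 and 448 and changed no call of a cystatin. The depth limits Cst7 in wild type most, at 141 fragments.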
